A study of Sus scrofa with 9 samples.

Results

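The antioxidant and NRF2 pathway genes described here are 35 genes chosen by symbol: every row of the deposited gene count table whose symbol is on the list was taken. All 35 symbols were found, each in a single row, among the 30942 rows of the table. RNA was measured in hearts of wild-type miniature pigs (Sus scrofa) in 3 groups of 3 libraries, given vehicle, doxorubicin, or doxorubicin plus formononetin (called the combination below). Doxorubicin is an anthracycline chemotherapy drug that is toxic to heart muscle and can pass through redox cycles that yield superoxide, and formononetin is a plant isoflavone. By its title, the series asks whether turning on the transcriptional program of the nuclear receptor ERR-alpha eases that toxicity. The labels used here state no sex, age, dose, duration or sampled part of the heart. Whether each library stands for its own animal is not stated, and the p-values therefore measure only library-to-library spread, which may be technical.

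NRF2, encoded by NFE2L2, is a transcription factor that is held in the cytoplasm and marked for degradation by KEAP1. When electrophiles or oxidants modify cysteines of KEAP1, NRF2 accumulates, pairs with small MAF proteins and binds antioxidant response elements near genes of glutathione synthesis, the thioredoxin system and quinone and heme detoxification. Heart muscle, rich in mitochondria, also relies on a largely constitutive set of enzymes: superoxide dismutases turn superoxide into hydrogen peroxide, and catalase, glutathione peroxidases and peroxiredoxins remove the peroxide. NRF2 is regulated mainly through its protein, which these data do not measure.

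Total counts ranged from 16291952 to 17549359 per library. The libraries were of heart: the 9 cardiomyocyte markers that matched a gene, among them TNNT2, TNNI3 and MYH7, summed to 60892 to 66462 CPM (counts scaled to a common library size by TMM) with vehicle, 44121 to 48549.6 CPM with doxorubicin and 54777 to 55906 CPM with the combination. The second library of the combination stood apart, with 14766 genes detected (1 count or more), where each of the other 8 had 18107 to 19304. It was also the library farthest from its group's median for 22 of the 35 genes, below the median in 15 of them. Calls among the 35 genes that change without it are given both ways. So are their differences printed below that move by over 1.5 times without it. Genes outside the 35 were not followed without it. None of the 35 genes was at 0 in any library. The lowest count was 14, for MSRA in that library, and mean counts per gene ran from 79.8 (MSRA) to 9782 (NNT).

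The genes differed widely in level. On a per-length scale (RPKM, the CPM divided by the deposited gene length in kilobases), the mitochondrial superoxide dismutase SOD2 was highest with vehicle at 240.1 ± 28.6 RPKM (SD, n = 3). The microsomal glutathione transferase MGST1 followed at 221 ± 43.9 RPKM, the mitochondrial peroxiredoxin PRDX3 at 218 ± 13.2 RPKM and the secreted glutathione peroxidase GPX3 at 210.4 ± 68.2 RPKM. These 4 levels lay within the spread of one another. PRDX2, GPX4 and MGST3 came next, at 190.1 ± 2.99, 183 ± 5.82 and 151 ± 14.8 RPKM. Lower in the order with vehicle were PRDX1 at 30.9 ± 4.38, TXN at 26.1 ± 1.95 and TXNRD1 at 20.8 ± 1.23 RPKM, followed by NQO1 at 15.6 ± 1.05 RPKM, HMOX1 at 4.18 ± 0.283 RPKM, GCLM at 3.60 ± 0.383 RPKM, GCLC at 3.05 ± 0.224 RPKM, SRXN1 at 2.08 ± 0.206 RPKM and the cystine importer SLC7A11 at 1.04 ± 0.298 RPKM. NFE2L2 itself was at 7.85 ± 0.338 RPKM and KEAP1 at 23.1 ± 1.42 RPKM, values that depend on the deposited lengths of 10108 and 3183 bases. MSRA, the repair enzyme for oxidised methionine, was the lowest at 0.561 ± 0.0752 RPKM.

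**Figure D1:**
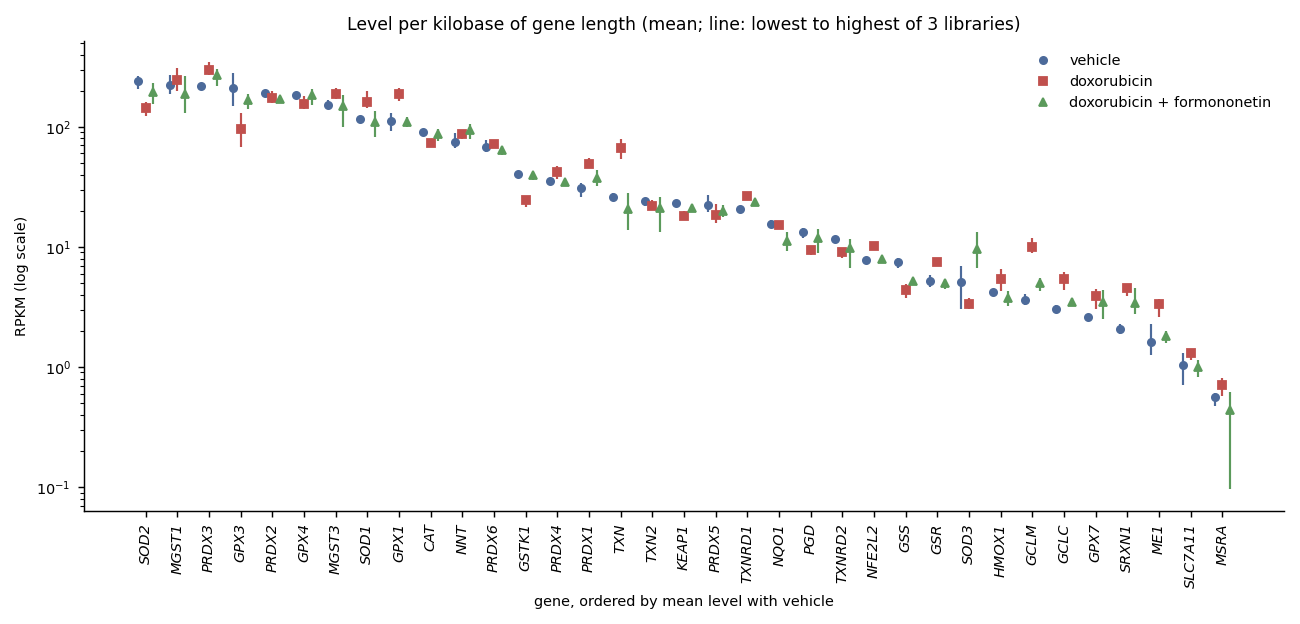
Level of each gene per kilobase of deposited gene length (RPKM, log axis) in the 3 groups, ordered by the mean with vehicle; points are means of 3 libraries and lines run from the lowest to the highest library. SOD2 stood at rank 1 with vehicle, rank 8 with doxorubicin and rank 2 with the combination, while PRDX3 was at rank 1 in the last 2 groups.

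With doxorubicin the 35 genes changed in both directions, as did all genes tested. The rate-limiting subunits of glutathione synthesis, glutathione reductase GSR, the cytosolic thioredoxin genes, the peroxiredoxins PRDX1 and PRDX3, the peroxidase GPX1, malic enzyme ME1 and NFE2L2 itself were higher. SOD2, catalase, GPX3, glutathione synthetase, GSTK1, PGD and KEAP1 were lower. The 2 genes most often used as NRF2 readouts, HMOX1 and NQO1, did not pass. Of the 35 genes 11 rose and 7 fell at an adjusted p under 0.05, by the edgeR quasi-likelihood test over all 14846 genes tested, and 17 did not pass. Over all genes tested 33.3% passed, 16.3% upward and 17.0% downward. The share of the 35 that fell was near that of all genes tested. The groups did not overlap for 15 genes that were higher and 8 that were lower, where 55.3% of all genes tested were so separated, 27.6% higher and 27.7% lower. The median log2 fold change of the 35 genes was 0.25, and that of all genes tested was -0.0019. Without the second combination library, which shares in the estimate of the spread, 14 rose and 8 fell. The 4 genes added were SOD1, GPX7 and MGST3 upward and TXNRD2 downward.

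With the combination, compared with doxorubicin alone, the glutathione synthesis genes GCLC and GCLM, glutathione reductase GSR, thioredoxin TXN, GPX1, ME1, NFE2L2, NQO1 and SOD1 were lower. SOD3, GPX3 and GSTK1 were higher. In all 9 fell, 3 rose and 23 did not pass, where 28.1% of all genes tested passed, 14.7% upward and 13.5% downward. Without overlap between groups 5 were higher and 13 lower, where 42.2% of all genes tested were separated, 20.0% higher and 22.2% lower. The median log2 fold change of the 35 was -0.17, against -0.010 for all genes tested. Without the second combination library 9 fell and 5 rose, and 9 of the 12 calls were shared. NQO1, SOD1 and GPX3 were lost, and SRXN1 and PRDX1 (downward) and SOD2, CAT and GPX4 (upward) were gained. This comparison and that of doxorubicin against vehicle use the same 3 doxorubicin libraries, so the 2 sets of changes are not independent of each other.

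With the combination compared with vehicle, none of the 35 genes passed by the edgeR quasi-likelihood test, where 1.76% of all genes tested did. DESeq2 and limma-voom also called 0. Groups did not overlap for 4 genes that were higher and 3 that were lower, where 23.6% of all genes tested were separated, 10.6% higher and 13.0% lower. At an unadjusted p under 0.05 there were 7 of the 35, where 16.8% of all genes tested reached that level. The smallest adjusted p was 0.118. The 95% intervals of the 35 differences from vehicle lay between -1.42 and 1.59 on the log2 scale.

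**Figure D2:**
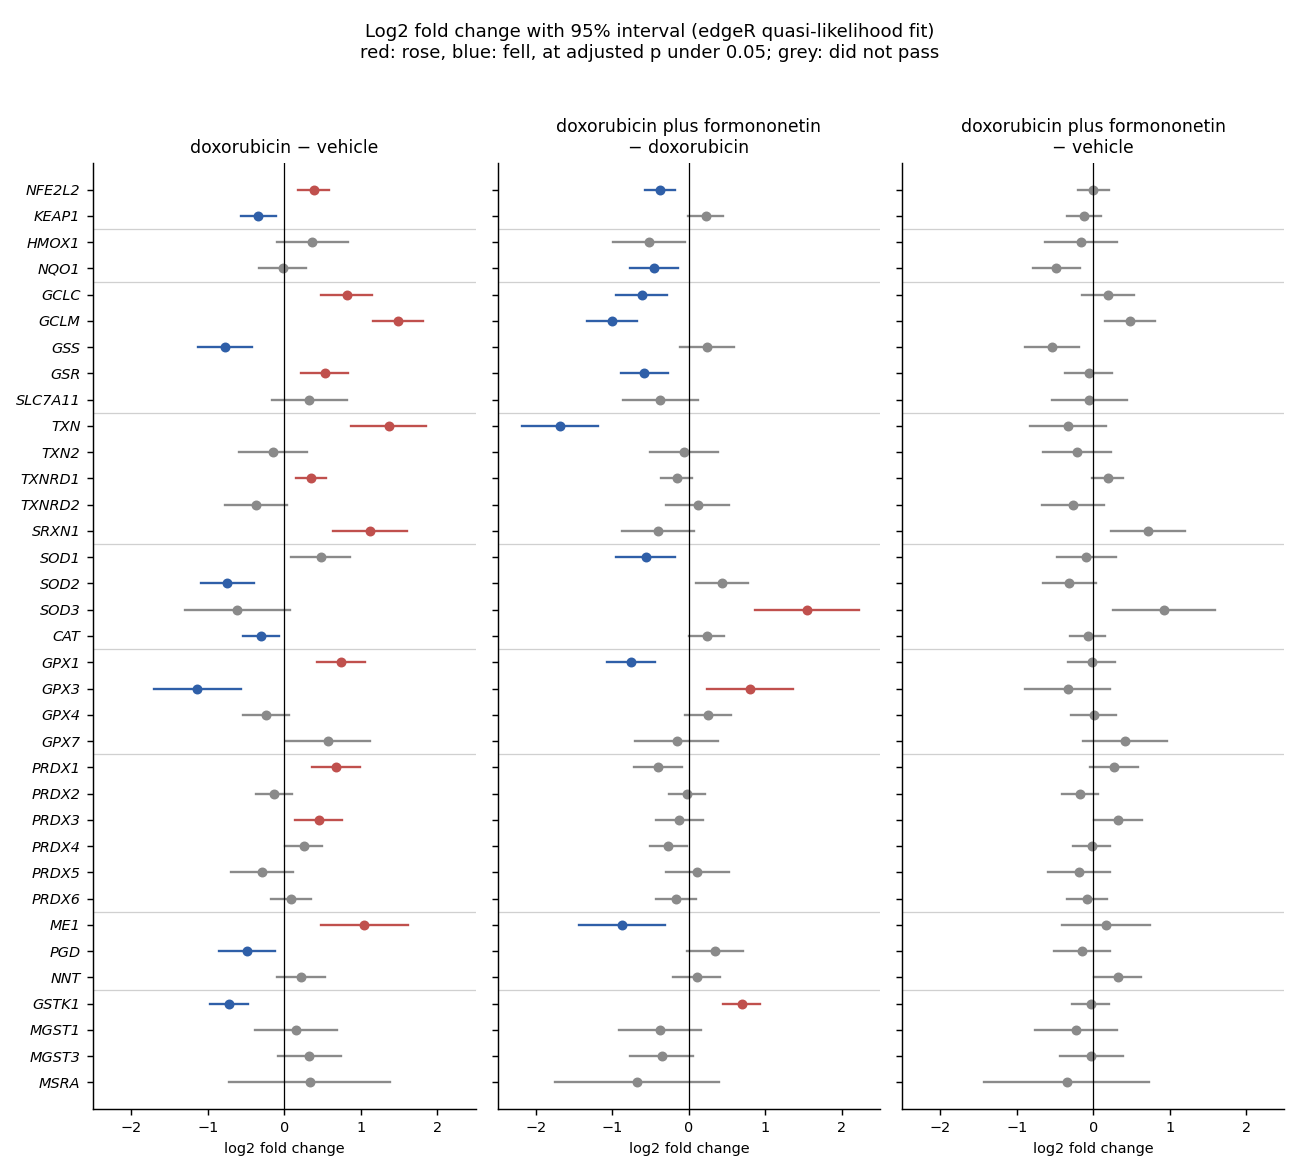
Log2 fold change of each gene in the 3 comparisons, with approximate 95% intervals from the edgeR fit that are not adjusted for multiple tests; grey lines separate functional groups. GCLM (1.48) and TXN (1.37) lay farthest to the right in doxorubicin against vehicle, TXN (-1.69) farthest to the left in the combination against doxorubicin, and no gene passed in the last panel.

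The 2 regulators moved in opposite directions with doxorubicin. NFE2L2 (chromosome 15, 82967485 to 83146185 on the minus strand of Sscrofa11.1) had 76.5, 78.5 and 83.1 CPM with vehicle, 104, 97.8 and 108 CPM with doxorubicin, and 82.6, 78.0 and 78.0 CPM with the combination. All 3 doxorubicin libraries lay above all 6 others. NFE2L2 rose with doxorubicin by 0.38 ± 0.092 (adjusted p = 0.00861) on the log2 scale (± SE), fell with the combination against doxorubicin, at -0.38 ± 0.092 (adjusted p = 0.0113), and differed from vehicle by 0.0027 ± 0.092 (adjusted p = 0.99) with the combination, or by 0.018 without the second combination library. Its span overlaps the opposite-strand genes HNRNPA3, over 1256 bases, and AGPS, over 123 bases, and the sources used here do not state how the counting treated strand. HNRNPA3 did not pass (-0.15 ± 0.10 with doxorubicin, adjusted p = 0.299, and 0.12 ± 0.10 with the combination against doxorubicin, adjusted p = 0.43), while AGPS rose by 0.33 ± 0.10 with doxorubicin (adjusted p = 0.0261) and fell with the combination against doxorubicin, at -0.32 ± 0.10 (adjusted p = 0.0329). Whether reads of these neighbours entered the NFE2L2 count was not tested.

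KEAP1 (chromosome 2, 69280940 to 69290267) had 77.5, 74.6 and 68.6 CPM with vehicle, 54.9, 55.7 and 63.8 CPM with doxorubicin, and 65.6, 72.0 and 65.4 CPM with the combination. The doxorubicin libraries were the lowest, and doxorubicin replicate 3 came close to the combination. KEAP1 changed by -0.34 ± 0.10 (adjusted p = 0.0251) with doxorubicin and by 0.22 ± 0.10 (adjusted p = 0.134) with the combination against doxorubicin. Its fall was not called without vehicle replicate 1 (adjusted p = 0.101), vehicle replicate 2 (0.0762), doxorubicin replicate 1 (0.092) or doxorubicin replicate 2 (0.0878).

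Heme oxygenase 1, which opens the heme ring, and NQO1, which reduces quinones in a single 2-electron step, are the standard transcript readouts of NRF2. HMOX1, whose row is not placed on a chromosome, had 6.97, 6.12 and 6.35 CPM with vehicle, 6.66, 10.2 and 8.17 CPM with doxorubicin, and 6.69, 5.73 and 4.98 CPM with the combination. The 3 groups overlapped, with doxorubicin replicate 2 the highest of the 9 libraries. The difference was 0.36 ± 0.21 (adjusted p = 0.214) with doxorubicin, with an interval from -0.10 to 0.83, and -0.52 ± 0.21 (adjusted p = 0.0899) with the combination against doxorubicin. NQO1 (chromosome 6, 17292962 to 17302593) had 24.6, 26.5 and 28.2 CPM with vehicle, 26.8, 23.7 and 27.5 CPM with doxorubicin, and 18.7, 15.8 and 22.4 CPM with the combination. Vehicle and doxorubicin libraries were interleaved, and the combination libraries lay below all of them. For doxorubicin against vehicle the NQO1 difference was -0.024 ± 0.14 (adjusted p = 0.915), with an interval from -0.33 to 0.28. Against doxorubicin NQO1 fell with the combination, at -0.46 ± 0.14 (adjusted p = 0.0328). That call was lost when any vehicle library was left out (adjusted p = 0.0509, 0.0537 and 0.0519), without doxorubicin replicate 1 (0.0943) or 3 (0.094), and without combination replicate 1 (0.0811) or 2 (0.0734), and with the 2 groups fitted alone (0.0803). Against vehicle NQO1 was at -0.48 ± 0.14 (adjusted p = 0.118), and without combination replicate 3 it reached -0.61 (adjusted p = 0.0444), the only gene of the 35 called in that comparison under any setting tried.

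Glutathione is made in 2 steps, of which glutamate-cysteine ligase, with its catalytic subunit GCLC and its modifier subunit GCLM, limits the rate. GCLM (chromosome 4, 123371198 to 123390130) showed the largest rise of the 35 genes with doxorubicin. It had 20.6, 17.7 and 16.9 CPM with vehicle, 47.7, 61.1 and 45.3 CPM with doxorubicin, and 26.7, 28.1 and 21.9 CPM with the combination. The 3 groups did not overlap, with vehicle lowest, the combination between and doxorubicin highest. GCLM rose by 1.48 ± 0.15 (adjusted p = 9.01e-05) with doxorubicin, 2.79-fold, and against doxorubicin it stood at -1.01 ± 0.15 (adjusted p = 8.67e-04) with the combination. Against vehicle the combination was still 0.48 ± 0.15 (adjusted p = 0.14) higher in all 3 libraries, with an interval from 0.15 to 0.81, but did not pass.

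GCLC (chromosome 7, 27209565 to 27253535) had 11.7, 11.8 and 13.3 CPM with vehicle, 24.6, 22.3 and 17.6 CPM with doxorubicin, and 15.0, 13.3 and 13.7 CPM with the combination. The doxorubicin libraries were again highest, and the combination lay just above vehicle without overlap. The rise was 0.81 ± 0.15 (adjusted p = 0.00227), smaller than that of GCLM, and the difference of the combination from doxorubicin was -0.62 ± 0.15 (adjusted p = 0.0123). Without doxorubicin replicate 1, the highest, the latter was -0.51 (adjusted p = 0.0579). Per length, GCLM stood at 3.60 ± 0.383 RPKM and GCLC at 3.05 ± 0.224 RPKM with vehicle, and at 10.1 ± 1.66 and 5.36 ± 0.889 RPKM with doxorubicin.

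The enzyme of the next step, glutathione synthetase GSS, went the other way. GSS had 12.7, 14.7 and 15.3 CPM with vehicle, 7.16, 9.23 and 8.54 CPM with doxorubicin, and 9.36, 10.4 and 9.63 CPM with the combination. Every vehicle library was above every other. GSS fell with doxorubicin, at -0.78 ± 0.16 (adjusted p = 0.0039), and differed by 0.24 ± 0.16 (adjusted p = 0.301) between the combination and doxorubicin. Against vehicle the combination was at -0.54 ± 0.16 (adjusted p = 0.12), lower in all 3 libraries.

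GSR, which regenerates reduced glutathione from its oxidised form, had 14.8, 16.3 and 13.0 CPM with vehicle, 19.9, 22.0 and 21.8 CPM with doxorubicin, and 14.6, 12.6 and 15.2 CPM with the combination. Doxorubicin libraries lay above all others, and vehicle and combination libraries overlapped. GSR rose by 0.52 ± 0.14 (adjusted p = 0.0136) with doxorubicin and fell with the combination against doxorubicin, at -0.58 ± 0.14 (adjusted p = 0.0103). Without vehicle replicate 3 the rise was 0.44 (adjusted p = 0.069). SLC7A11, the cystine importer that feeds the pathway, was between 6.66 and 13.0 CPM in all 9 libraries and passed in no comparison. Its interval for doxorubicin against vehicle ran from -0.17 to 0.81.

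Thioredoxin and its reductase pass electrons from NADPH to peroxiredoxins and to ribonucleotide reductase, and heart cells hold a cytosolic pair (TXN, TXNRD1) and a mitochondrial pair (TXN2, TXNRD2). The cytosolic pair rose with doxorubicin and the mitochondrial pair did not pass. TXN (chromosome 1, 251264180 to 251278000) had 18.1, 21.1 and 19.9 CPM with vehicle, 51.6, 40.5 and 60.3 CPM with doxorubicin, and 21.5, 10.5 and 15.3 CPM with the combination. Its doxorubicin libraries were all at least as high as 40.5 CPM, and no other library exceeded 21.5 CPM. TXN rose by 1.37 ± 0.22 (adjusted p = 0.00105) with doxorubicin, 2.58-fold, and showed the largest fall of the 35 genes with the combination against doxorubicin, at -1.69 ± 0.23 (adjusted p = 5.34e-04). The combination overlapped vehicle, at -0.33 ± 0.23 (adjusted p = 0.5), or -0.10 (adjusted p = 0.83) without its second library.

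TXNRD1 had 76.4, 67.8 and 72.3 CPM with vehicle, 89.9, 93.3 and 92.2 CPM with doxorubicin, and 79.7, 85.9 and 81.4 CPM with the combination. The groups did not overlap: vehicle was lowest and doxorubicin highest. TXNRD1 rose by 0.35 ± 0.092 (adjusted p = 0.0136) with doxorubicin, while the combination differed from doxorubicin by -0.16 ± 0.092 (adjusted p = 0.225). Without vehicle replicate 2 the rise was 0.30 (adjusted p = 0.0672). The mitochondrial reductase TXNRD2 was at 21.7 ± 0.558 CPM with vehicle, 16.7 ± 1.54 CPM with doxorubicin and 18.1 ± 4.92 CPM with the combination. With doxorubicin its libraries were all below vehicle, at -0.38 ± 0.19 (adjusted p = 0.142), or -0.38 (adjusted p = 0.0167) without the second combination library and adjusted p = 0.0235 with the 2 groups fitted alone. Mitochondrial thioredoxin TXN2 differed by -0.15 ± 0.20 (adjusted p = 0.62).

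Sulfiredoxin SRXN1, which restores peroxiredoxins that have been oxidised too far, had 4.81, 5.22 and 5.85 CPM with vehicle, 12.2, 12.4 and 9.89 CPM with doxorubicin, and 7.60, 11.5 and 7.01 CPM with the combination. Vehicle libraries were the lowest, and the second combination library sat among those of doxorubicin. SRXN1 rose by 1.12 ± 0.22 (adjusted p = 0.00297) with doxorubicin, 2.17-fold. The combination differed from doxorubicin by -0.40 ± 0.22 (adjusted p = 0.19), and by -0.65 (adjusted p = 0.0211) without that library. Against vehicle the combination was at 0.72 ± 0.22 (adjusted p = 0.134), higher in 3 of 3 libraries, without passing, and at 0.46 (adjusted p = 0.215) without its second library.

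Among the superoxide dismutases each of the 3 forms behaved in its own way. SOD2, the manganese enzyme of the mitochondrial matrix (chromosome 1, 7679352 to 7689564), had 439.5, 417 and 348 CPM with vehicle, 239, 271 and 207 CPM with doxorubicin, and 319, 260.0 and 389.6 CPM with the combination. All doxorubicin libraries except replicate 2 were below every other library, and replicate 2 lay just above the second combination library. SOD2 fell with doxorubicin, at -0.75 ± 0.16 (adjusted p = 0.00431). The combination stood between, at 0.43 ± 0.16 (adjusted p = 0.0606) against doxorubicin, and passed without its second library (0.57, adjusted p = 0.0153), with DESeq2 (adjusted p = 0.03) and with no low-count filter (adjusted p = 0.0317). Without combination replicate 3 it was at 0.28 (adjusted p = 0.187).

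SOD1, the copper and zinc enzyme of the cytosol, had 75.8, 73.9 and 72.6 CPM with vehicle, 91.5, 90.9 and 126 CPM with doxorubicin, and 85.5, 52.0 and 71.4 CPM with the combination. Doxorubicin replicate 3 was the highest of the 9 libraries and combination replicate 2 the lowest. SOD1 differed by 0.47 ± 0.18 (adjusted p = 0.0588) with doxorubicin, and fell with the combination against doxorubicin at -0.56 ± 0.18 (adjusted p = 0.0343). That fall was at -0.39 (adjusted p = 0.137) without doxorubicin replicate 3 and at -0.39 (0.0812) without combination replicate 2. It was also not called without combination replicate 3 (0.0549) or without vehicle replicate 1, 2 or 3 (0.0539, 0.0536 and 0.0546), nor with the 2 groups fitted alone (0.0804). Leaving out combination replicate 2 or replicate 1 instead brought the difference between doxorubicin and vehicle past the threshold (adjusted p = 0.0157 and 0.0439), as did DESeq2 (0.0289), no low-count filter (0.0402) and a fit of the 2 groups alone (0.0141). Without doxorubicin replicate 3 that difference was 0.30 (adjusted p = 0.232). SCAF4, which overlaps SOD1 by 96 bases on the opposite strand, rose by 0.52 ± 0.12 with doxorubicin (adjusted p = 0.00736).

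SOD3, the secreted form that binds to the extracellular matrix, had 5.17, 11.8 and 8.92 CPM with vehicle, 5.18, 6.33 and 5.41 CPM with doxorubicin, and 15.3, 22.6 and 11.3 CPM with the combination. The combination libraries lay above all doxorubicin libraries and overlapped vehicle only through combination replicate 3. The combination differed from vehicle by 0.93 ± 0.30 (adjusted p = 0.156), with an interval from 0.26 to 1.59, without passing. SOD3 rose with the combination against doxorubicin by 1.54 ± 0.31 (adjusted p = 0.00443), 2.91-fold, the largest rise of the 35 genes in that comparison. With doxorubicin against vehicle it was at -0.61 ± 0.31 (adjusted p = 0.153), and at -0.87 (adjusted p = 0.046) without vehicle replicate 1 but -0.32 (adjusted p = 0.51) without vehicle replicate 2. Summed marker levels of 3 cell types, each highest in a combination library, are given beside it by library in order of replicate. For 10 fibroblast markers they were 2244, 3581 and 3977 CPM with vehicle, 3084, 2158 and 2828 CPM with doxorubicin, and 4714, 5559 and 2445 CPM with the combination. For 10 smooth muscle and pericyte markers they were 1112, 862 and 806, then 791, 883 and 876, then 1768, 1632 and 913 CPM. For 6 Schwann cell markers they were 58.9, 51.6 and 46.2, then 38.7, 36.0 and 39.0, then 119.7, 157 and 72.8 CPM. The order of libraries was that of SOD3 for fibroblast and Schwann cell sums within the combination. It was also that of SOD3 for smooth muscle and pericyte sums within doxorubicin. In every other case, all those within vehicle included, the order differed from that of SOD3. With the combination against doxorubicin, where 28.1% of all genes tested passed, 4 of the 10 fibroblast markers rose. Of the 10 smooth muscle and pericyte markers 4 rose and 1 fell. Further lists are given as ranges with vehicle, doxorubicin and the combination. Macrophage sums were 225 to 354, 437 to 452 and 316 to 347 CPM. Lymphatic sums were 172 to 175, 165 to 166 and 146 to 188 CPM. Endothelial sums were 1134 to 1601, 970 to 1140 and 1315 to 1461 CPM. Adipocyte sums were 381 to 421, 257 to 318 and 321 to 432 CPM. The part of any of these cell types in the SOD3 result was not tested. In these whole-tissue libraries, fewer cells of a type and less RNA per cell cannot be told apart.

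Catalase, the peroxisomal enzyme that breaks down hydrogen peroxide, was slightly lower with doxorubicin. CAT had 219.9, 234 and 217 CPM with vehicle, 175, 179.7 and 188 CPM with doxorubicin, and 216, 187 and 236 CPM with the combination. All vehicle libraries exceeded all doxorubicin libraries, and combination replicate 2 lay beside the latter. The fall was -0.31 ± 0.10 (adjusted p = 0.0426) on the log2 scale and was not called when any vehicle or doxorubicin library was left out (adjusted p from 0.0614 without doxorubicin replicate 3 to 0.148 without vehicle replicate 2), nor without combination replicate 1 (0.0666) or with no low-count filter (0.0574). The combination differed from doxorubicin by 0.24 ± 0.10 (adjusted p = 0.115), or by 0.32 (adjusted p = 0.0325) without the second combination library. Summed levels of the 7 matched erythroid markers were 83.7 to 95.6 CPM with vehicle, 43.0 to 48.7 CPM with doxorubicin and 64.3 to 105 CPM with the combination. Only 4 were tested. With doxorubicin 1 of the 4, GYPC, fell (median log2 fold change -0.16), where 33.3% of all genes tested passed. With the combination against doxorubicin 2 rose, GYPC and HBB, where 28.1% passed. Red cell precursors express catalase and PRDX2, and PRDX2 did not pass with doxorubicin (-0.14 ± 0.11, adjusted p = 0.342). SLC4A1 was at 0 in all doxorubicin and combination libraries. The part of red cell precursors in the catalase result was not tested.

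Glutathione peroxidases use glutathione to reduce peroxides. GPX1, GPX3 and GPX4 are selenoproteins, while GPX7 carries a cysteine in place of selenocysteine. GPX1, the cytosolic and mitochondrial form (chromosome 13, 31916269 to 31917337), had 91.7, 73.3 and 104 CPM with vehicle, 148, 132 and 168 CPM with doxorubicin, and 97.0, 79.6 and 88.3 CPM with the combination. Doxorubicin libraries were at least 132 CPM and the others at most 104 CPM. GPX1 rose by 0.74 ± 0.14 (adjusted p = 0.00265) with doxorubicin, fell with the combination against doxorubicin at -0.76 ± 0.14 (adjusted p = 0.00316), and was at -0.021 ± 0.14 (adjusted p = 0.956) against vehicle, or 0.05 without the second combination library.

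GPX3, the secreted form found in plasma (chromosome 16, 71980467 to 71989011), showed the largest fall with doxorubicin. GPX3 had 232, 443 and 313 CPM with vehicle, 203, 106 and 139.7 CPM with doxorubicin, and 272, 293 and 218 CPM with the combination. Every vehicle library was above every doxorubicin library, though vehicle libraries themselves spread widely. The fall was -1.14 ± 0.26 (adjusted p = 0.00618), and GPX3 rose with the combination against doxorubicin by 0.80 ± 0.26 (adjusted p = 0.0367). The rise was not called without vehicle replicate 3 (adjusted p = 0.0542), doxorubicin replicate 2 (0.131) or 3 (0.111), or combination replicate 1 (0.0881) or 2 (0.0798).

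GPX4, which reduces lipid hydroperoxides in membranes and guards against ferroptosis, was at 163 ± 5.18 CPM with vehicle, 138 ± 19.6 CPM with doxorubicin and 164 ± 25.7 CPM with the combination. It differed by -0.24 ± 0.14 (adjusted p = 0.195) with doxorubicin, with an interval from -0.54 to 0.055. The combination differed from doxorubicin by 0.25 ± 0.14 (adjusted p = 0.193), or by 0.38 (adjusted p = 0.0412) without the second combination library. GPX7, of the endoplasmic reticulum, was low at 4.53 ± 0.185 CPM with vehicle and 6.74 ± 1.28 CPM with doxorubicin. All 3 doxorubicin libraries were above vehicle, at 0.57 ± 0.25 (adjusted p = 0.0992), or adjusted p = 0.0445 without the second combination library and 0.0338 with the 2 groups fitted alone.

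**Figure D3:**
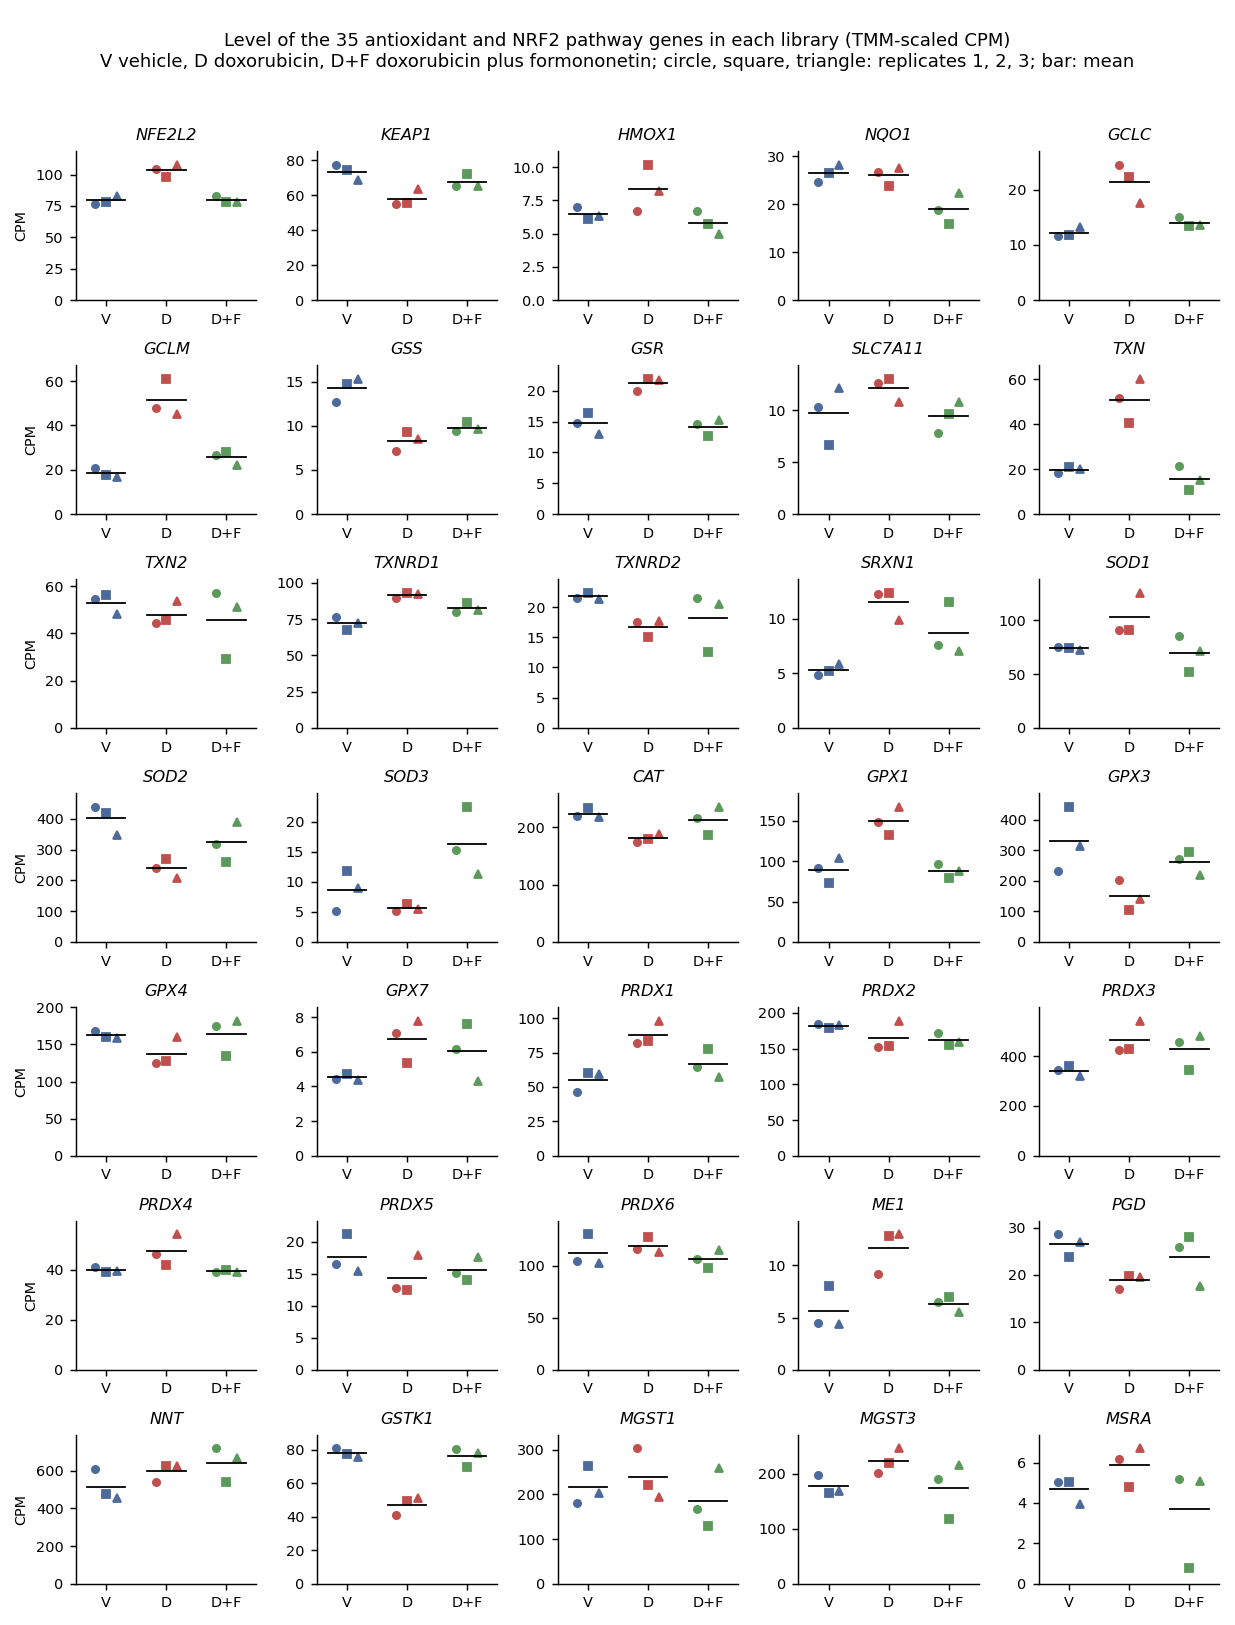
Level of each of the 35 genes in every library, in TMM-scaled CPM on linear axes from 0; symbols mark the replicate number and bars the mean of 3 libraries. GCLM, TXN, GSR and GPX1 show doxorubicin libraries above all others, GSTK1 shows them below all others, and MSRA shows the second combination library (square) far below the rest at 0.802 CPM.

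Peroxiredoxins are abundant thiol peroxidases, PRDX1, PRDX2 and PRDX6 mainly of the cytosol, PRDX3 of mitochondria, PRDX4 of the endoplasmic reticulum and PRDX5 of several compartments. Of the 6, PRDX1 and PRDX3 rose with doxorubicin and 4 did not pass. PRDX1 had 46.1, 60.2 and 59.1 CPM with vehicle, 82.0, 83.3 and 98.2 CPM with doxorubicin, and 64.3, 77.2 and 57.5 CPM with the combination. Doxorubicin libraries were the highest, with combination replicate 2 closest to them. PRDX1 rose by 0.67 ± 0.14 (adjusted p = 0.00447) with doxorubicin. The combination differed from doxorubicin by -0.40 ± 0.14 (adjusted p = 0.0539), and by -0.53 (adjusted p = 0.0193) without the second combination library. It also passed without vehicle replicate 1 (adjusted p = 0.0447), with DESeq2 (0.0286) and with limma-voom (0.0468).

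PRDX3 had 346, 359 and 319 CPM with vehicle, 425, 429 and 543 CPM with doxorubicin, and 457, 346 and 479 CPM with the combination. Doxorubicin lay above vehicle throughout, while the combination spanned both. The rise of 0.45 ± 0.14 (adjusted p = 0.0306) was not called without vehicle replicate 1 (adjusted p = 0.0741), 2 (0.0671) or 3 (0.114) or without doxorubicin replicate 3 (0.119). The 4 others differed from vehicle by between -0.30 ± 0.19 (PRDX5) and 0.25 ± 0.11 (PRDX4) with doxorubicin. PRDX2 had 179 to 184 CPM in the vehicle libraries and 152 to 189 CPM in the rest. PRDX6 overlaps an opposite-strand gene, LOC100624136, which rose by 1.26 ± 0.26 with doxorubicin (adjusted p = 0.00382) at a mean of 110.4 counts, against 1897 for PRDX6.

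NADPH drives both the glutathione and the thioredoxin systems. Cytosolic malic enzyme ME1 had 4.51, 7.98 and 4.40 CPM with vehicle, 9.14, 12.8 and 13.0 CPM with doxorubicin, and 6.50, 6.93 and 5.50 CPM with the combination. Doxorubicin libraries were above all others. ME1 rose by 1.05 ± 0.26 (adjusted p = 0.0096) with doxorubicin, 2.06-fold, and fell with the combination against doxorubicin at -0.88 ± 0.26 (adjusted p = 0.0257). The fall was not called without doxorubicin replicate 2 (adjusted p = 0.0839) or 3 (0.0819), or without combination replicate 1 (0.057) or 3 (0.0614).

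PGD, the third enzyme of the pentose phosphate pathway and a source of NADPH, had 28.5, 23.9 and 27.0 CPM with vehicle, 17.1, 19.8 and 19.7 CPM with doxorubicin, and 25.8, 28.1 and 17.7 CPM with the combination. Vehicle lay above doxorubicin in all libraries, and combination replicate 3 fell among the doxorubicin values. The fall with doxorubicin, -0.49 ± 0.17 (adjusted p = 0.0419), was not called when any vehicle or doxorubicin library was left out (adjusted p from 0.0577 without vehicle replicate 2 to 0.137 without vehicle replicate 1), nor without combination replicate 1 (0.0517). PGD in the combination against doxorubicin was at 0.34 ± 0.17 (adjusted p = 0.151), or 0.52 (adjusted p = 0.0166) without combination replicate 3 and 0.21 (adjusted p = 0.365) without replicate 2. NNT, which makes NADPH in the mitochondrial matrix from the proton gradient, was abundant and passed in no comparison, at 512 ± 83.3 CPM with vehicle, 596 ± 49.1 CPM with doxorubicin and 640.1 ± 92.0 CPM with the combination.

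Glutathione transferases couple glutathione to electrophiles or lipid peroxides. GSTK1, a form of mitochondria and peroxisomes (chromosome 18, 6992623 to 6999068), had 80.9, 77.6 and 75.4 CPM with vehicle, 41.0, 49.2 and 51.2 CPM with doxorubicin, and 80.4, 69.9 and 78.3 CPM with the combination. The doxorubicin libraries were far below all 6 others, which overlapped. GSTK1 fell with doxorubicin, at -0.73 ± 0.11 (adjusted p = 7.10e-04), and rose by 0.69 ± 0.11 (adjusted p = 0.00139) with the combination against doxorubicin, and both calls held under every setting tried. The combination differed from vehicle by -0.033 ± 0.11 (adjusted p = 0.904), with an interval from -0.27 to 0.21, or by 0.027 without the second combination library.

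The membrane-bound MGST1 and MGST3 did not pass. MGST1 ranged from 129 CPM in the second combination library to 303 CPM in doxorubicin replicate 1, and its difference with doxorubicin was 0.15 ± 0.24 (adjusted p = 0.681). For the combination against doxorubicin it was at -0.37 ± 0.24 (adjusted p = 0.275), or -0.69 (adjusted p = 0.0313) without combination replicate 3. It shrank to -0.17 (adjusted p = 0.618) without combination replicate 2 and to -0.17 (adjusted p = 0.675) without doxorubicin replicate 1. MGST3 was higher with doxorubicin than with vehicle in all libraries, at 0.33 ± 0.19 (adjusted p = 0.207), and passed without the second combination library (adjusted p = 0.036) and with the 2 groups fitted alone (0.0333). MSRA, at 3.96 to 6.70 CPM in the other 8 libraries and 0.802 CPM in the second combination library, had the widest interval of the 35 genes, from -0.72 to 1.38 for doxorubicin against vehicle.

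The share called in each further list is to be set against the 33.3% of all genes tested that passed with doxorubicin and the 28.1% that passed for the combination against doxorubicin, since a share near these is no result about the list. The further lists held 178 genes in 8 lists, of which 166 matched a row, and genes named only to complete a small count were chosen after their values were seen. Of 18 tested partners and turnover genes 4 rose and 5 fell with doxorubicin, with a median log2 fold change of -0.12. MAFK, a small MAF partner of NRF2, fell from 35.2 ± 2.63 to 18.8 ± 2.22 CPM, at -0.90 ± 0.12 (adjusted p = 3.94e-04). NFE2L1, the NRF2 relative that controls proteasome genes, changed by -0.71 ± 0.12 (adjusted p = 0.00118), and TRIM16 by -1.02 ± 0.24 (adjusted p = 0.00781). SQSTM1, an autophagy receptor that binds KEAP1, and DCAF11 fell as well. GSK3B, a kinase that marks NRF2 for degradation, rose by 0.59 ± 0.095 (adjusted p = 9.09e-04), and RBX1 of the KEAP1 ligase complex, the repressor BACH1 and DPP3 rose too. With the combination against doxorubicin 5 rose and 2 fell, with a median of 0.097. Those that rose were MAFK (0.88 ± 0.12, adjusted p = 6.67e-04), NFE2L1 (0.58 ± 0.12, adjusted p = 0.00475), TRIM16, SQSTM1 and DCAF11, and those that fell were GSK3B (-0.39 ± 0.095, adjusted p = 0.0108) and RBX1 (-0.50 ± 0.14, adjusted p = 0.0177).

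Other genes of glutathione handling went both ways. Of 20 tested 4 rose and 5 fell with doxorubicin (median 0.060). GGT5, a surface enzyme that cleaves glutathione conjugates, went from 31.9 ± 6.24 to 5.87 ± 0.653 CPM (-2.44 ± 0.20, adjusted p = 2.97e-05), and OPLAH, which recycles 5-oxoproline, changed by -0.97 ± 0.12 (adjusted p = 2.62e-04). GLRX5, ABCC1 and HAGH also fell. CHAC2, a cytosolic glutathione-degrading enzyme, rose by 1.64 ± 0.33 (adjusted p = 0.0034), and glutaredoxin GLRX by 1.13 ± 0.24 (adjusted p = 0.00413), with GLO1 and GPX8. Against doxorubicin, the combination gave a rise of GGT5 (2.17 ± 0.20, adjusted p = 7.08e-05), OPLAH (0.81 ± 0.12, adjusted p = 0.00109) and ABCC1 and a fall of GLO1 (-0.62 ± 0.12, adjusted p = 0.003), GLRX (-0.995 ± 0.23, adjusted p = 0.00972), CHAC2 and GPX8. Of 8 tested glutathione transferases beyond the 35 genes, GSTO1 fell with doxorubicin (-0.55 ± 0.19, adjusted p = 0.0442) and GSTZ1 rose with the combination against doxorubicin (0.45 ± 0.14, adjusted p = 0.0308). Over these 8 the median was 0.27 with doxorubicin and -0.32 with the combination against it. GSTO1 also fell with the combination against vehicle, at -1.001 ± 0.19 (adjusted p = 0.0284).

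Of 19 tested thioredoxin-fold and methionine repair genes 6 rose and 3 fell with doxorubicin (median 0.36, against -0.0019 for all genes tested). TXNDC9 rose by 0.68 ± 0.14 (adjusted p = 0.0033), TXNL4B by 0.67 ± 0.14 (adjusted p = 0.00394) and TXNL1 by 0.38 ± 0.10 (adjusted p = 0.0135). MSRB2, the mitochondrial methionine repair enzyme, went from 31.9 ± 2.82 to 10.4 ± 1.68 CPM (-1.62 ± 0.29, adjusted p = 0.00183), and MSRB1 and TXNIP fell too. TXNIP, which binds and inhibits thioredoxin, fell in every comparison. It was at 959 ± 45.5 CPM with vehicle, 739.6 ± 23.1 CPM with doxorubicin and 439 ± 71.7 CPM with the combination, and stood at -0.75 ± 0.12 (adjusted p = 0.00126) for the combination against doxorubicin and -1.13 ± 0.12 (adjusted p = 7.45e-04) against vehicle. With the combination against doxorubicin 6 of 19 fell, TXNL4B (-0.92 ± 0.14, adjusted p = 0.00112) and TXNDC9 (-0.64 ± 0.14, adjusted p = 0.00637) among them, and MSRB1 rose (0.49 ± 0.11, adjusted p = 0.00647), with a median of -0.30.

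Of 18 tested NADPH supply genes beyond the 35, 1 rose and 2 fell with doxorubicin (median -0.0007). ALDH1L2, the mitochondrial folate enzyme that yields NADPH, rose by 0.67 ± 0.14 (adjusted p = 0.00393) and fell with the combination against doxorubicin (-0.70 ± 0.14, adjusted p = 0.00431). NADK, which makes NADP from NAD, changed by -0.50 ± 0.12 (adjusted p = 0.00872) and ME3 by -0.47 ± 0.14 (adjusted p = 0.0239) with doxorubicin. H6PD (0.55 ± 0.15, adjusted p = 0.0205) and ME3 (0.46 ± 0.14, adjusted p = 0.0333) rose with the combination against doxorubicin. PGLS, TALDO1, TKT, RPIA and RPE of the cytosolic pentose phosphate pathway did not pass in any comparison.

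Of 27 tested detoxification targets 5 rose and 6 fell with doxorubicin (median -0.067). SLC48A1, a heme transporter, changed by -0.92 ± 0.14 (adjusted p = 6.80e-04), the constitutive heme oxygenase HMOX2 by -0.63 ± 0.11 (adjusted p = 0.00159), metallothionein MT3 by -1.68 ± 0.32 (adjusted p = 0.00259) and ferritin light chain FTL by -0.62 ± 0.13 (adjusted p = 0.00377). Those that rose were BLVRA, ALDH3A2, ABCB6, ALDH2 and UGT1A6, whose reads may be shared with relatives in its gene family. With the combination against doxorubicin 7 rose and 5 fell (median -0.018), and SLC48A1 (0.93 ± 0.14, adjusted p = 9.94e-04), FTL (0.78 ± 0.13, adjusted p = 0.00151), HMOX2 (0.61 ± 0.11, adjusted p = 0.00261) and the esterase CES1 (2.18 ± 0.42, adjusted p = 0.00353) led by p. Against vehicle the combination was lower in MT3 (-2.40 ± 0.34, adjusted p = 0.0053) and higher in ALDH7A1 (0.46 ± 0.094, adjusted p = 0.0337).

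Of 20 genes of selenoprotein synthesis and further selenoproteins 3 rose and 6 fell with doxorubicin (median 0.040). SELENOT rose by 0.72 ± 0.14 (adjusted p = 0.00255) and SELENOF by 0.60 ± 0.14 (adjusted p = 0.00651), both proteins of the endoplasmic reticulum, with SEPSECS. EEFSEC, the elongation factor that delivers selenocysteine, changed by -0.74 ± 0.17 (adjusted p = 0.00746) and SELENOO by -0.55 ± 0.14 (adjusted p = 0.0101). SCLY (1.09 ± 0.21, adjusted p = 0.00345), SELENOO (0.65 ± 0.14, adjusted p = 0.00614), EEFSEC and DIO3 rose with the combination against doxorubicin, and SELENOS (-0.67 ± 0.15, adjusted p = 0.00637), SELENOT (-0.62 ± 0.14, adjusted p = 0.00694), SELENOF and SELENOW fell (median -0.069).

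Among 20 tested genes listed for sources of oxidants, 2 rose and 4 fell with doxorubicin (median -0.26), against the 33.3% of all genes tested that passed. NOX4, the NADPH oxidase that makes hydrogen peroxide in heart muscle, rose from 10.5 ± 1.82 to 24.5 ± 1.96 CPM (1.22 ± 0.16, adjusted p = 2.60e-04), and POR, a reductase that can reduce doxorubicin by a single electron, rose as well. NOX5 changed by -2.82 ± 0.38 (adjusted p = 3.65e-04), monoamine oxidase MAOA by -0.66 ± 0.15 (adjusted p = 0.0068) and endothelial NOS3 by -0.48 ± 0.13 (adjusted p = 0.0136), and SH3PXD2B fell too. With the combination against doxorubicin NOX4 (-0.91 ± 0.15, adjusted p = 0.00188) and MAOB (-0.84 ± 0.19, adjusted p = 0.00825) fell, and NOX5 (2.04 ± 0.38, adjusted p = 0.00295), MAOA (0.80 ± 0.15, adjusted p = 0.00347) and AIFM2 rose (median 0.25). AIFM2 is on the list although it is not an established source of oxidants, so its rise is not that of an oxidant source. Against vehicle POR was higher with the combination, at 0.93 ± 0.18 (adjusted p = 0.0302).

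**Figure D4:**
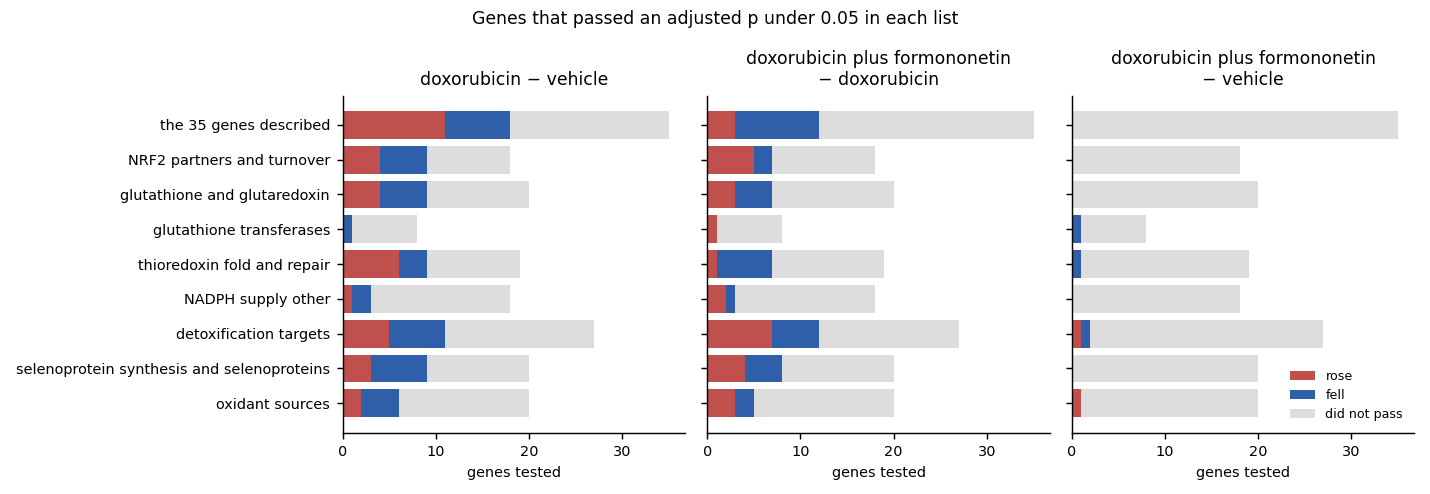
Number of tested genes that rose, fell or did not pass at an adjusted p under 0.05, for the 35 genes and for 8 further lists, in the 3 comparisons. In doxorubicin against vehicle the 35 genes gave 11 and 7 and the thioredoxin-fold list 6 and 3 of 19, while in the combination against vehicle the 35 genes gave none.

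Counts of cell type markers that passed are also to be set against all genes tested. Of those 33.3% passed with doxorubicin and 28.1% for the combination against doxorubicin. A share near these is no result about a cell type. With doxorubicin 4 of 12 macrophage markers rose and none fell, and their summed level was 225 to 354 CPM with vehicle, 437 to 452 CPM with doxorubicin and 316 to 347 CPM with the combination. Macrophages express HMOX1, SOD2 and TXN. Of 9 cardiomyocyte markers 7 fell and 1 rose with doxorubicin, and 4 of 10 endothelial and 4 of 10 fibroblast markers fell. Endothelial sums were 1134 to 1601, 970.3 to 1140.2 and 1315 to 1461 CPM, and adipocyte sums 381 to 421, 257 to 318 and 321 to 432 CPM, in the same order of groups. With the combination against doxorubicin 5 of 12 macrophage markers fell, and all 6 Schwann cell markers, 5 of 9 cardiomyocyte, 3 of 10 endothelial and 3 of 9 adipocyte markers rose. Of 6 lymphatic markers 4 rose and 2 fell in that comparison. Of 9 tested adipocyte markers 6 fell and 1 rose with doxorubicin, and 4 of 6 lymphatic markers fell and 2 rose, with lymphatic sums of 172 to 175, 165 to 166 and 146 to 188 CPM. Lymphocyte sums did not exceed 72.9 CPM and neutrophil sums 3.67 CPM in any library, with S100A9 and MPO at 0 in all vehicle libraries and LEP at 0 in all combination libraries. The part of these shifts in the levels of the 35 genes was not tested. The mitochondrially encoded share of counts was 20.7% to 21.3% with vehicle, 23.3% to 24.4% with doxorubicin and 22.0% to 28.8% with the combination, and library sizes taken without those genes left all counts of calls among the 35 genes as given.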

How the data were processed

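The authors deposited raw read counts per gene for 9 libraries, with a gene length in bases for each row (another column, used only for RPKM). Per the labels' protocols, total RNA from heart was purified on RNeasy columns and libraries were made with a SMARTER mRNA kit. The aligner, the counting program and its strand setting were not given in the sources used here. Gene IDs matched the RefSeq annotation of Sscrofa11.1 for 30335 of 30942 rows, the 35 genes included; the 607 rows without a symbol held 2.66% of counts and stayed in the fit, since they carry their own locus identifiers. Genes were filtered with filterByExpr (minimum count 10), which left 14846, and scaled by TMM. The edgeR 4.0.16 quasi-likelihood test (R 4.3.3) was fitted to all 9 libraries with 1 mean per group, and p-values were adjusted by Benjamini-Hochberg over all genes tested. A standard error is the size of the log2 fold change over the root of its F statistic. The fit was also run on simulated counts, but the outcome is not given here and adds nothing to the calls above. Alternatives were RLE scaling, library sizes without mitochondrial genes, other filters, DESeq2 1.42.0, limma-voom (limma 3.58.1), the 2 groups alone, a replicate block and leaving out each library. Only the 35 genes were followed through them. The members and lists were chosen with earlier results of these data known. Every library's values are given for NFE2L2, KEAP1, HMOX1, NQO1 and for members called in any comparison. For each further list, log2 fold changes are given for up to 4 called genes per comparison, those with the smallest p. Other genes of those lists are named outside that rule. A planned search of promoters for antioxidant response elements was not made here.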

Additional observations from a re-analysis of the deposited data

How the results depend on the processing

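Over 17 alternatives, 9 of which leave out a library, 19 of the 30 calls made among the 35 genes in the 3 comparisons were kept in each alternative, 11 were lost in at least 1, and 13 results gained a call in at least 1. No called value changed sign or moved by over 1.5 times. The count of genes that fell with doxorubicin against vehicle was 7, and 4 with a replicate block, where KEAP1, CAT and PGD were lost; leaving out 1 library gave 4 to 8, and 9 to 14 for genes that rose. For the combination against doxorubicin, leaving out 1 library gave 2 to 5 genes that rose and 6 to 9 that fell. Against vehicle it gave 0 for genes that rose and 0 to 1 for genes that fell. Fitting the 2 groups alone gave 14 and 8 with doxorubicin, and 3 and 7 for the combination against doxorubicin. Correlations of deviations from the group means ran from -0.20 to 0.027 between libraries of equal replicate number. Between unequal numbers they ran from -0.11 to 0.14. With 3 libraries a group, such values cannot tell whether equal numbers were paired. The block also ended the call of GPX3 in the combination against doxorubicin (adjusted p = 0.0653) and changed no other call. Leaving out a library leaves 2 in its group. With 3 libraries a group, the intervals of low-count genes such as MSRA and SOD3 remained wide.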
